A study of Homo sapiens with 14 samples.

Results

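The promoters of the proteasome genes were examined in 2 lists of ZNF143 ChIP-seq peaks. Members were the protein-coding genes of GENCODE release 44 (hg38) whose symbols start with PSMA, PSMB, PSMC, PSMD, PSME, PSMF or PSMG and go on with a digit, which gave 50 of 19970 protein-coding genes. Of these, 48 encode subunits, activators, inhibitors or assembly chaperones of the proteasome. PSMC3IP and PSME3IP1 only carry such a symbol and are named apart. A peak was assigned to a gene when its centre lay from 2000 bp upstream to 1000 bp downstream of any annotated transcription start site (TSS) of that gene.

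The peaks come from HEK293T cells, an established line derived from human embryonic kidney, in which ZNF143 is fused to the degradation tag FKBP12F36V (ZNF143-FKBP12F36V, 1 clone, HEK_CloneZD29). All samples, the untreated ones included, carry this fusion. Chromatin was precipitated with a polyclonal anti-ZNF143 antibody from Proteintech, which the study reports to cross-react with CTCF. It came from 4 untreated samples and from 4 samples that had received dTAG-V1 (dTAGV-1 in the labels) at 0.5 µM for 30 min. This small molecule brings the tagged protein to the VHL ubiquitin ligase, after which the proteasome degrades it. A single list of peaks was deposited for each condition, 20429 peaks without treatment and 35287 with dTAG-V1. The study's methods describe an unequal rule for reproducible peaks, detection in each of the 4 untreated replicates but in any of the 4 treated ones, and it is not stated whether the deposited lists passed it, so that counts set across the lists may include its effect. The 3 untreated and 3 treated CTCF samples were not analysed here.

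The 26S proteasome degrades ubiquitinated proteins. Its 20S core particle is a stack of rings of alpha and beta subunits, with the proteolytic sites on the beta subunits, and its 19S regulatory particle binds ubiquitin chains, removes them and unfolds the substrate with a ring of ATPases. Its genes are active in nearly all cells, apart from a few tissue-restricted or interferon-induced subunits. ZNF143 is a zinc finger activator found mostly at promoters. It binds the SBS element, in a short form (SBS1) and in a longer form (SBS2) that carries the sequence ACTACA in front of the shared TTCCCAG core. CTCF, another zinc finger protein, binds an unrelated sequence. The genes of the proteasome are a case in which many subunits of 1 machine are encoded at scattered loci, and the lists show how many of these promoters carried a called peak.

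The strongest SBS hits in the untreated peaks are shown first. Most lay in high-scoring proteasome peaks, whereas those of PSMC3IP and PSME3 lay in weaker peaks, 289 and 213 bp from the summit. Shown is the best hit in each of the 12 member peaks with the highest motif scores. Sequences read 5′ to 3′ from hg38 on the strand of the motif, and capitals mark the letters matched by the SBS1 or SBS2 matrix.
PSMD2: tggagACTACAATTCCCAGCCTCCcccgc
PSMC4: cttaaACTACACTTCCCAGAAGCCtcctc
PSMD13: cggcgCTCCCAGCCTGCCCCGCGccgct
PSMC3: taaagACTACATTTCCCAAAGGCCctcgc
PSMD11: gagagACTACAACTCCCGGAGTGCtctgg
PSMD7: ttccgCTCCCAGAGTGCCTCGCGcggcg
PSMD3: ggcgtTTCCCAGAAGGCCCAGCGccggg
PSMD4: cggcaCCTACAACTCCCAGAACGCaacgt
PSMD10: gcagaACTACAAGTCCCAGGGATCctagc
PSMA2: ttagaACTACAACACCCCGCATGCtcttg
PSMC3IP: ccggcCCTACAGCTCCCAGGATGTgttcg
PSME3: gagggTTCCCAGACTCCCTTCTAaggtc

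The hits of PSMD2 (chr3:184299037-184299055, minus strand), PSMC4 (chr19:39971103-39971121, plus), PSMC3 (chr11:47426625-47426643, minus), PSMD11 (chr17:32444394-32444412, plus), PSMD4 (chr1:151254634-151254652, plus), PSMD10 (chrX:108091746-108091764, plus), PSMA2 (chr7:42932283-42932301, minus) and PSMC3IP (chr17:42577501-42577519, minus) were SBS2 hits. Those of PSMD13 (chr11:236936-236953, plus), PSMD7 (chr16:74296762-74296779, minus), PSMD3 (chr17:39980802-39980819, plus) and PSME3 (chr17:42824106-42824123, plus) were SBS1 hits. The strongest was that of PSMD2, with a p of 7.05e-11 against the base composition of the genome, followed by PSMC4 (4.98e-10), PSMD13 (1.61e-09), PSMC3 (5.33e-09) and PSMD11 (8.79e-09). Relative to the canonical transcript, 10 of the 12 hits lay upstream of the TSS. That of PSMD3 lay in the 5′ untranslated part of exon 1 and that of PSMC3IP in the coding part of exon 2.

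A pair of these promoters is shown at more length, from the 4 of decile 1, the 10% of the list with the highest scores, whose summit window held no exonic base. The untreated summit with 60 bases on each side follows, in the direction of the gene, with SBS hits at a p of 1e-05 or below in capitals. The PSMD2 window is chr3:184298968-184299088 (plus strand) and the PSMC3 window chr11:47426564-47426684 (minus strand).
PSMD2: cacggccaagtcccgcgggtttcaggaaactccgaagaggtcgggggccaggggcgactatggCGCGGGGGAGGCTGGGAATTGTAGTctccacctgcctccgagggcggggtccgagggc
PSMC3: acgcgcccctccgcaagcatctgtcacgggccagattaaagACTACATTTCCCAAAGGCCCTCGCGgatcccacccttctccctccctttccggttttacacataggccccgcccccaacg
In PSMD2 the element runs against the direction of transcription, and in PSMC3 along it.

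A peak was called at the promoter of 40 of the 50 genes in the untreated list, 80.0% (95% Wilson interval 67.0 to 88.8), beside 40.5% of all protein-coding genes. The dTAG-V1 list held a promoter peak at the same 40 genes, beside 48.2% of all protein-coding genes. No member had a peak in 1 list only (0%, 0 to 7.13 for either list). Of all protein-coding genes, 3.37% had a peak in the untreated list only and 11.1% in the dTAG-V1 list only. Under other settings, given below, up to 2 members had a peak in 1 list only. A peak in both lists was found at 37.2% of all protein-coding genes. Of the 19S particle, all 17 subunits with a PSM symbol had one, as did 12 of the 15 subunits PSMA1 to PSMA8 and PSMB1 to PSMB7 of the 20S particle. The 19S subunit SEM1, which lacks such a symbol, is counted with the partner genes below. Presence in a list was described and not tested, as each condition has 1 list without replicate values. The intervals cover counting error over genes only.

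The 10 genes without a promoter peak in either list were PSMA7, PSMA8, PSMB5, PSMB8, PSMB9, PSMB11, PSMD5, PSME1, PSME4 and PSME3IP1. PSMA8 encodes a testis-specific alpha subunit and PSMB11 a subunit of the thymus. PSMB8 and PSMB9 are interferon-induced subunits of the immunoproteasome, and PSME1 is one chain of the interferon-induced activator PA28. PSMA7 and PSMB5, which carries the chymotrypsin-like site, belong to the constitutive core particle, PSMD5 is a 19S assembly chaperone and PSME4 encodes the activator PA200.

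CpG content was set beside these counts, since CpG-rich promoters had more peaks in general. The ratio of observed to expected CpG from 250 bases before to 50 after the canonical TSS was at least 0.75 in 33 members, of which 29 had an untreated peak, 87.9% (72.7 to 95.2), beside 54.1% of the 10717 protein-coding genes at or above that ratio. Among the 17 members below it, 11 had a peak, 64.7%, beside 24.8% of the 9253 protein-coding genes below it. The median ratio was 0.849 in the members with a peak, 0.742 in those without and 0.776 over all protein-coding genes. PSMA7 had the highest ratio of all members, 1.12, and no peak. Transcription was not measured in these files, so that the background includes genes that are silent in these cells.

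**Figure D1:**
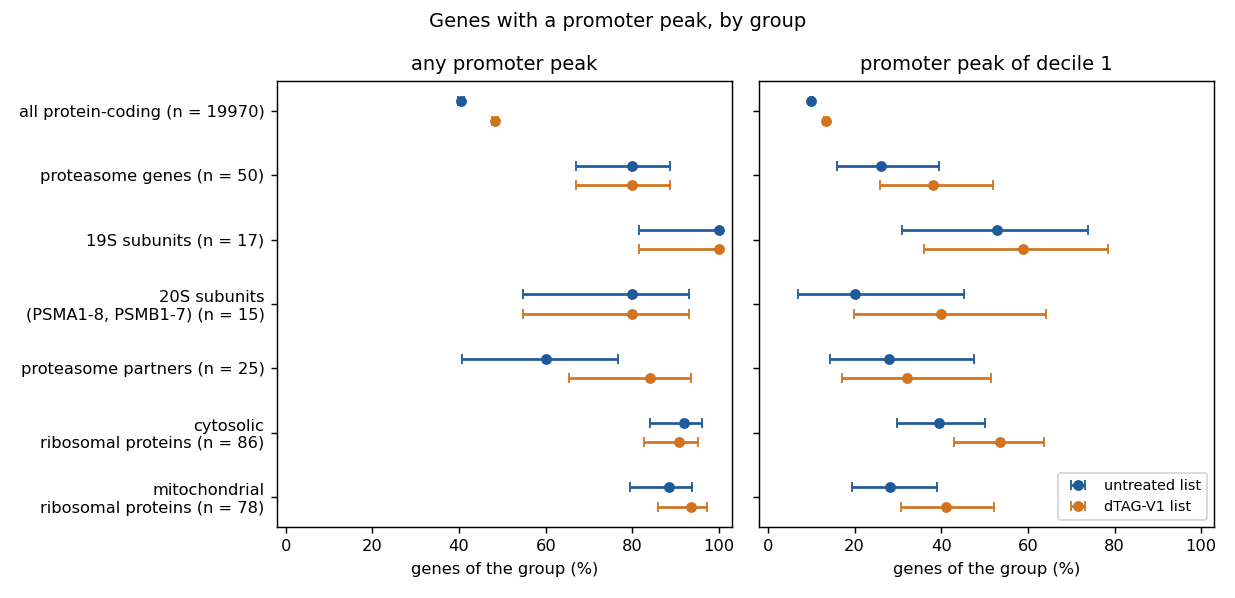
Percentage of genes with a promoter peak (left) and with a promoter peak in decile 1 of the score (right) in the untreated and the dTAG-V1 list. Points are shares and bars 95% Wilson intervals; the proteasome genes reached 80.0% in both lists, above all protein-coding genes and below both groups of ribosomal protein genes.

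The proteasome genes were compared with other housekeeping machines. Promoter peaks were called in the untreated list at 79 of 86 genes of cytosolic ribosomal proteins, 91.9% (84.1 to 96.0), and at 69 of 78 genes of mitochondrial ribosomal proteins, 88.5% (79.5 to 93.8). With dTAG-V1 the counts were 78 and 73. The intervals of all 3 groups overlapped.

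Members differed widely in the score that the peak caller MACS2 gave their peaks. The score is 10 times the −log10 q-value without its decimals, so that only rank, fold enrichment and −log10 q are given. Ranks are counted from the highest score of the same list. Decile 1 held the peaks of 13 members without treatment, 26% (15.9 to 39.6), beside 10.1% of all protein-coding genes, 39.5% of the cytosolic and 28.2% of the mitochondrial ribosomal protein genes. Among these 13 genes, 9 encode 19S subunits (9 of the 17 with a PSM symbol, 52.9%, 31.0 to 73.8), 3 encode 20S subunits (3 of 15, 20%, 7.05 to 45.2) and the last is the chaperone gene PSMD10. The intervals of the 19S and 20S subunits overlapped. At PSMD10, PSMA2 and PSMD13 the summit lay nearer to a TSS of another protein-coding gene. The decile 1 shares were not recounted without such peaks, in the members or in the background. The median fold enrichment was 6.33 over the 43 untreated peaks of the members and 4.35 over the 7702 promoter peaks of all protein-coding genes.

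**Figure D2:**
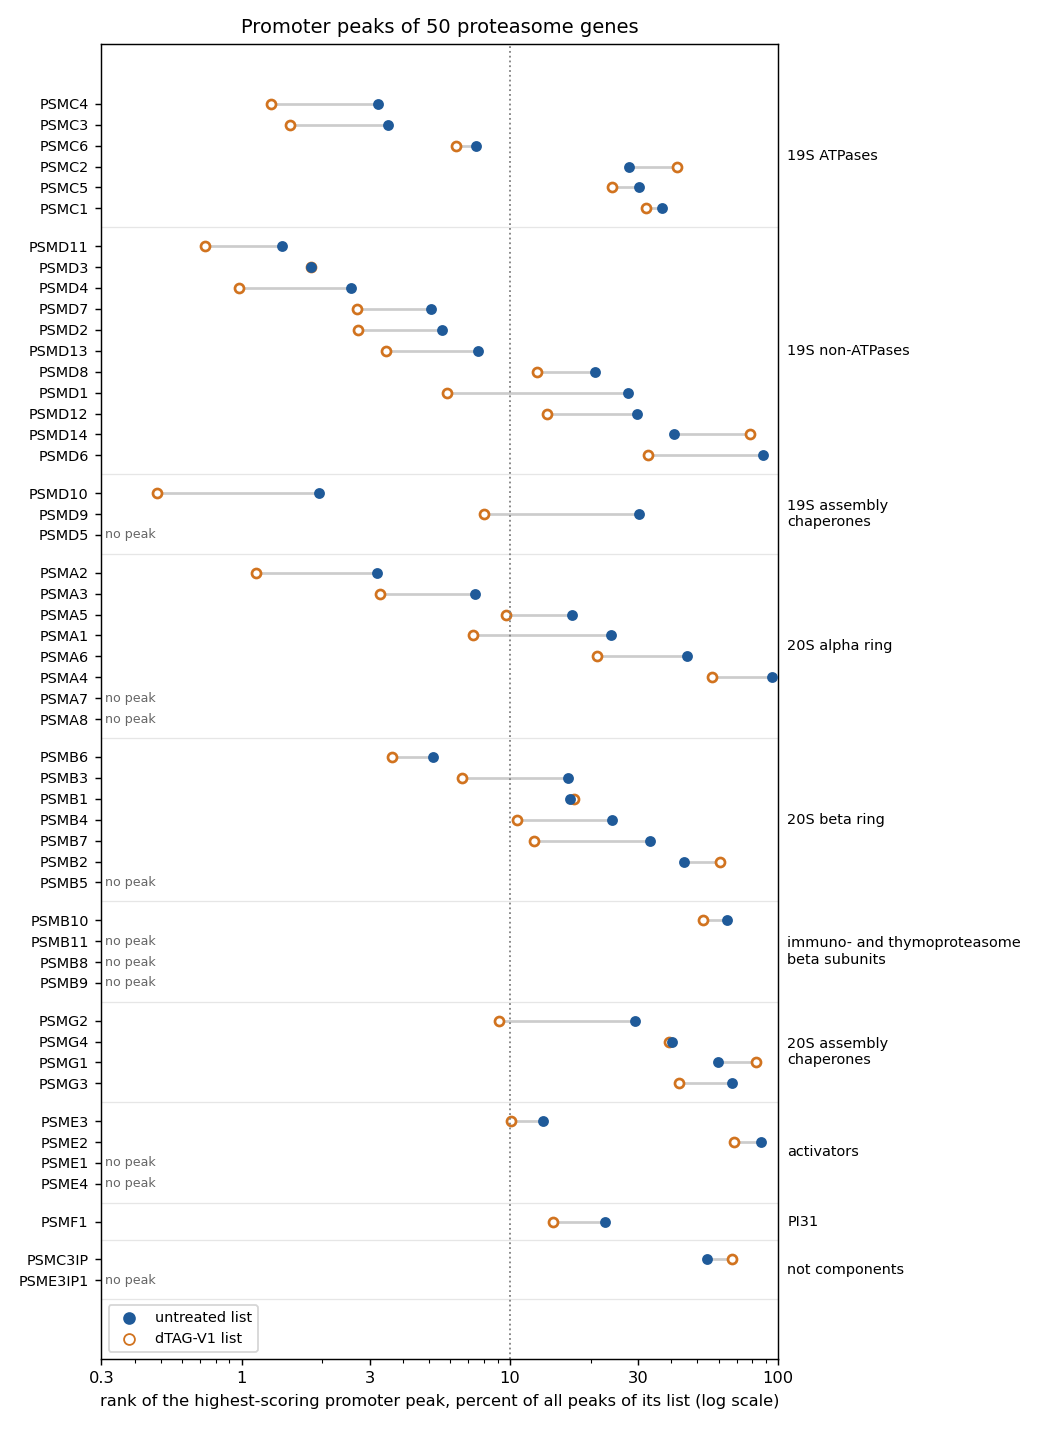
Rank of the highest-scoring promoter peak of each proteasome gene as a percentage of its list (log scale, smaller is stronger), by role, for the untreated (filled) and the dTAG-V1 list (open). The dotted line is the edge of decile 1, with 13 untreated genes to its left; the dTAG-V1 list is longer, so that a lower percentage there is not a stronger signal.

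Of the 6 ATPases of the 19S base, which unfold substrates and feed them into the core, 3 ranked in decile 1. The PSMC4 peak (chr19:39970872-39971460) ranked 661 of 20429, with a fold enrichment of 36.9, a −log10 q of 5048, a width of 589 bp and its summit 44 bp upstream of the nearest TSS of the gene. The PSMC3 peak (chr11:47426109-47427167) ranked 717, with a fold of 23.5, a −log10 q of 4725, a width of 1059 bp and a summit 151 bp upstream. PSMC6 (chr14:52706954-52707684) ranked 1533, with a fold of 23.5, a −log10 q of 1450, a width of 731 bp and a summit 4 bp upstream. The other 3 ATPase genes lay far lower in the list, in deciles 3 to 5.

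PSMC2 had a pair of peaks at separate start sites. The upper one (chr7:103344728-103344999) ranked 5678, with a fold of 5.35, a −log10 q of 44.0, a width of 272 bp and a summit 36 bp upstream of an alternative TSS, and the lower one (chr7:103347584-103348173) ranked 10082, with a fold of 3.35, a −log10 q of 16.0, a width of 590 bp and a summit 1 bp downstream of the canonical TSS. PSMC5 (chr17:63826891-63827566) ranked 6158, with a fold of 5.44, a −log10 q of 37.9, a width of 676 bp and a summit 15 bp upstream. PSMC1 (chr14:90256379-90256740) ranked 7560, with a fold of 4.74, a −log10 q of 26.4, a width of 362 bp and a summit 11 bp upstream.

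The 11 non-ATPase subunits among the members belong to the lid of the 19S particle or to the scaffold and ubiquitin receptors of its base. Of them, 6 had a peak in decile 1. PSMD11, a lid subunit, had the highest-ranking peak of all members (chr17:32444227-32444599), with rank 290, a fold of 39.1, a −log10 q of 9018, a width of 373 bp and a summit 37 bp upstream. PSMD3 (chr17:39980603-39980978), also in the lid, ranked 371, with a fold of 39.3, a −log10 q of 7804, a width of 376 bp and a summit 20 bp upstream. Both peaks were narrow beside the median of 589 bp over the members.

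PSMD4 encodes a ubiquitin receptor, and its peak (chr1:151254322-151254980) ranked 520, with a fold of 34.6, a −log10 q of 6202, a width of 659 bp and a summit 48 bp upstream. The lid subunit PSMD7 (chr16:74296316-74297155) ranked 1039, with a fold of 28.9, a −log10 q of 3205, a width of 840 bp and a summit 40 bp upstream. PSMD2 (chr3:184298718-184299274), the base scaffold with the strongest SBS hit, ranked 1142, with a fold of 32.1, a −log10 q of 2709, a width of 557 bp and a summit 170 bp upstream. The PSMD13 peak (chr11:236485-237390) ranked 1551, with a fold of 22.0, a −log10 q of 1421, a width of 906 bp and a summit 21 bp upstream. Its summit lay 14 bp from a TSS of the divergent gene SIRT3, so that SIRT3 and PSMD13 cannot be told apart as its gene.

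The remaining 5 non-ATPase genes had weaker untreated peaks. PSMD8 (chr19:38374185-38375030) ranked 4229, with a fold of 8.04, a −log10 q of 80.5, a width of 846 bp and a summit 101 bp upstream. The scaffold gene PSMD1 (chr2:231056509-231056864) ranked 5649, with a fold of 6.50, a −log10 q of 44.2, a width of 356 bp and a summit 131 bp upstream. PSMD12 (chr17:67366365-67366730) ranked 6081, with a fold of 5.29, a −log10 q of 38.6, a width of 366 bp and a summit 35 bp upstream. PSMD14, the deubiquitinase of the lid (chr2:161308047-161308786), ranked 8380, with a fold of 4.58, a −log10 q of 21.9, a width of 740 bp and a summit 47 bp upstream. PSMD6 (chr3:64023465-64023684) ranked 17892, with a fold of 2.32, a −log10 q of 4.97, a width of 220 bp and a summit 34 bp upstream, near the lower end of the list.

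Among the 3 chaperones that assemble the 19S base, PSMD10 (gankyrin) ranked 398 (chrX:108091325-108092090), with a fold of 27.6, a −log10 q of 7566, a width of 766 bp and a summit 139 bp upstream. This summit was 20 bp from a TSS of ATG4A, an autophagy protease gene that starts 236 bp away on the other strand. PSMD9 (chr12:121888186-121889215) ranked 6197, with a fold of 4.40, a −log10 q of 37.5, a width of 1030 bp and a summit 205 bp upstream. PSMD5 had no peak.

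The alpha ring gates the entry to the core, and 6 of its 8 genes had a peak. PSMA2 (chr7:42931926-42932619) ranked 655, with a fold of 32.6, a −log10 q of 5078, a width of 694 bp and a summit 100 bp upstream. MRPL32, a mitochondrial ribosomal protein gene, starts 202 bp away on the other strand. PSMA3 (chr14:58244403-58245194) ranked 1508, with a fold of 23.4, a −log10 q of 1534, a width of 792 bp and a summit 71 bp upstream. PSMA5 (chr1:109426033-109427093) ranked 3486, with a fold of 7.87, a −log10 q of 133, a width of 1061 bp and a summit 324 bp upstream.

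The last 3 alpha ring genes had low scores. PSMA1 (chr11:14520274-14520777) ranked 4851, with a fold of 6.33, a −log10 q of 59.3, a width of 504 bp and a summit 28 bp downstream of the nearest TSS. PSMA6 (chr14:35292261-35292659) ranked 9368, with a fold of 3.85, a −log10 q of 18.2, a width of 399 bp and a summit 2 bp downstream. PSMA4 (chr15:78540223-78540551) ranked 19413, the lowest of all members, with a fold of 2.02, a −log10 q of 3.56, a width of 329 bp and a summit 122 bp upstream.

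In the beta ring, which holds the proteolytic sites, 6 of 7 genes had a peak and only PSMB6, the caspase-like subunit, reached decile 1. Its peak (chr17:4795913-4796394) ranked 1056, with a fold of 33.5, a −log10 q of 3123, a width of 482 bp and a summit 24 bp upstream. PSMB3 (chr17:38752413-38752956) ranked 3356, with a fold of 9.46, a −log10 q of 147, a width of 544 bp and a summit 155 bp upstream. PSMB4 (chr1:151399140-151399773) ranked 4914, with a fold of 5.59, a −log10 q of 58.0, a width of 634 bp and a summit 68 bp upstream. PSMB7, the trypsin-like subunit (chr9:124415191-124415675), ranked 6776, with a fold of 4.84, a −log10 q of 31.8, a width of 485 bp and a summit 8 bp downstream.

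PSMB1 had a pair of untreated peaks of unequal strength. The higher one (chr6:170553771-170554576) ranked 3429, with a fold of 7.97, a −log10 q of 137 and a width of 806 bp, and its summit lay 1000 bp upstream of PSMB1 and 5 bp from a TSS of TBP, the TATA-binding protein gene. The other one (chr6:170553085-170553416), 16 bp downstream of the PSMB1 start, ranked 8478, with a fold of 3.25, a −log10 q of 21.5 and a width of 332 bp. PSMB2 (chr1:35641478-35641939) ranked 9059, with a fold of 3.78, a −log10 q of 19.3, a width of 462 bp and a summit 66 bp upstream.

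Of the genes PSMB8 to PSMB11, whose products replace the constitutive active subunits in immune cells or the thymus, only PSMB10 had a peak (chr16:67935828-67936493). It ranked 13189, with a fold of 3.31, a −log10 q of 10.1 and a width of 666 bp, and its summit lay 111 bp upstream of an internal start site, in coding exon 4 of the canonical transcript. A TSS of another gene annotated as protein-coding was closer, at 79 bp.

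All 4 chaperone genes of 20S assembly had a peak. PSMG1 and PSMG2 form one heterodimer and PSMG3 and PSMG4 another, and both dimers help to build the alpha ring. PSMG2 (chr18:12702722-12703179) ranked 5997, with a fold of 5.98, a −log10 q of 39.8, a width of 458 bp and a summit 47 bp upstream. PSMG4 (chr6:3231382-3232069) ranked 8224, with a fold of 3.76, a −log10 q of 22.7, a width of 688 bp and a summit 32 bp upstream of a distal alternative TSS. PSMG1 (chr21:39183596-39183859) ranked 12136, with a fold of 3.02, a −log10 q of 11.6, a width of 264 bp and a summit 182 bp upstream. PSMG3 (chr7:1570071-1570469) ranked 13678, with a fold of 3.16, a −log10 q of 9.36, a width of 399 bp and a summit 71 bp upstream.

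Among the 4 activator genes, PSME3, the nuclear activator PA28 gamma, had a pair of peaks. The upper one (chr17:42832969-42833738), at the canonical start, ranked 2702, with a fold of 13.7, a −log10 q of 278, a width of 770 bp and a summit 13 bp upstream. The lower one (chr17:42824012-42824520), 57 bp upstream of a distal start site, ranked 3896, with a fold of 8.17, a −log10 q of 99.6 and a width of 509 bp, and its summit was 41 bp from a TSS of the autophagy gene BECN1. PSME2 (chr14:24146998-24147256) ranked 17572, with a fold of 2.65, a −log10 q of 5.19, a width of 259 bp and a summit 52 bp downstream of an alternative TSS. PSME1, whose product pairs with that of PSME2, had none.

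PSMF1 encodes the proteasome inhibitor PI31, and its peak (chr20:1118162-1118785) ranked 4610, with a fold of 7.77, a −log10 q of 66.2, a width of 624 bp and a summit 41 bp upstream. Of the genes that carry a proteasome symbol only, PSMC3IP, a meiotic recombination factor, had a peak (chr17:42577435-42578070) that ranked 11073, with a fold of 3.52, a −log10 q of 13.7, a width of 636 bp and a summit 4 bp upstream. PSME3IP1, which encodes a protein that binds PSME3, had none.

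Summits lay close to start sites. In the untreated list, 41 of the 43 summits were within 250 bp of a TSS of their gene and 37 lay upstream of it, with a median position of 44 bp upstream. Relative to the canonical transcript, 37 summits lay upstream, 5 in the untranslated part of exon 1 and 1 in a coding exon. For 6 peaks a TSS of another protein-coding gene was nearer to the summit, at PSMD10, PSMA2, PSMD13, PSMB1, PSME3 and PSMB10. With only those peaks counted whose summit was nearest to a TSS of the member itself, 36 members remained in the untreated list, beside 34.1% of all protein-coding genes.

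**Figure D3:**
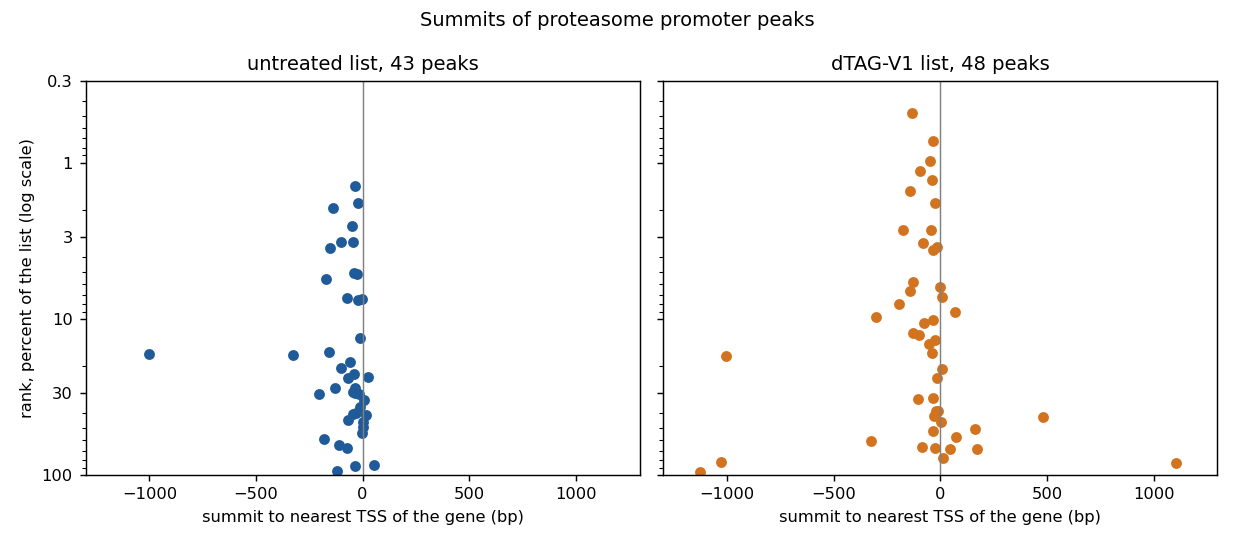
Position of each peak summit relative to the nearest TSS of its proteasome gene (x, bp, negative is upstream) against its rank as a percentage of the list (y, log scale, strongest at the top). All 13 untreated peaks of decile 1 had summits within 250 bp of the TSS, and with dTAG-V1 18 of 19 did, PSMA5 being the exception.

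The dTAG-V1 list addresses which peaks were still called once ZNF143 was targeted for degradation. Of the 43 untreated peaks of the members, 42 (97.7%, 87.9 to 99.6) were overlapped by at least 1 bp of a dTAG-V1 peak, beside 84.2% of all untreated promoter peaks. All 13 peaks of decile 1 were, beside 99.6% of the promoter peaks of that decile. Of the 30 peaks in deciles 2 to 10, 29 were overlapped, 96.7% (83.3 to 99.4), beside 80.2% of the 6115 promoter peaks of those deciles. When 50% of each peak had to overlap, the shares were 79.1% and 67.9%. The exception was PSMG1, whose dTAG-V1 peak (chr21:39184289-39184547, rank 29122) lay 1031 bp upstream of the nearest start site.

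A called peak says that signal passed the threshold, and not how much signal was left after 30 min. Score, fold and rank depend on the depth of each pool of reads, which is unknown here, so the values of both lists stand side by side and are not compared. PSMD10 led the members in the dTAG-V1 list, with rank 170 of 35287, a fold of 26.2, a −log10 q of 4072 and a width of 769 bp. PSMD11 ranked 257 (fold 33.0, −log10 q 3311, width 515 bp). PSMD4 ranked 344 (fold 29.6, −log10 q 2773, width 641 bp). PSMA2 ranked 399 (fold 29.4, −log10 q 2511, width 712 bp).

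The next members followed closely. PSMC4 ranked 453 (fold 32.4, −log10 q 2278, width 610 bp), PSMC3 535 (fold 22.6, −log10 q 2033, width 1066 bp) and PSMD3 638 (fold 28.9, −log10 q 1687, width 476 bp). PSMD7 ranked 947 (fold 22.1, −log10 q 988, width 839 bp), PSMD2 959 (fold 27.0, −log10 q 970, width 586 bp) and PSMA3 1161 (fold 17.3, −log10 q 654, width 852 bp). In the dTAG-V1 list the summits of these 10 lay 134, 34, 47, 96, 41, 144, 26, 43, 177 and 83 bp upstream of the nearest TSS, in the order PSMD10, PSMD11, PSMD4, PSMA2, PSMC4, PSMC3, PSMD3, PSMD7, PSMD2 and PSMA3. All 10 were also in decile 1 without treatment.

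Decile 1 of the dTAG-V1 list held peaks of 19 members, 38% (25.9 to 51.8), among them all 13 of the untreated decile 1 and PSMD1, PSMB3, PSMA1, PSMD9, PSMG2 and PSMA5. Of all protein-coding genes 13.4% had a peak in that decile. Decile 1 of the longer list holds more peaks.

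Summits of the strong peaks lay at nearly the same position in both lists. For the 13 peaks of decile 1 the untreated and the dTAG-V1 summit lay at most 12 bp apart, with a median of 4 bp, beside a median of 4 bp over the promoter peaks of that decile. In deciles 2 to 10, the median shift was 21.5 bp over 30 pairs of overlapping peaks of the members and 49 bp over all promoter pairs. The largest shift was that of PSMA5, whose wide untreated peak overlapped 2 dTAG-V1 peaks with summits 22 and 687 bp away.

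In the dTAG-V1 list, 5 of the 48 member peaks (10.4%) overlapped no untreated peak, beside 37.4% of all promoter peaks of that list. All 5 belonged to genes that had an untreated peak elsewhere. That of PSMG1 was the only dTAG-V1 peak of its gene, so that PSMG1 counts in both lists through peaks at different places. The others of the 5 lay at PSMG3 (chr7:1569327-1569773, rank 14990), at an internal start site of PSMD13 (chr11:250696-251005, rank 17966), in intron 1 of PSMG4 (chr6:3259620-3260203, rank 29673) and upstream of a distal start site of PSMG2 (chr18:12656685-12656952, rank 33684), where a TSS of SPIRE1 was nearer, at 177 bp. Of the 5, 4 were in deciles 6 to 10, and that of PSMG3 in decile 5.

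SBS hits at a p of 5e-05 were present in 33 of the 43 untreated member peaks, 76.7% (62.3 to 86.8), beside 70.3% of all untreated promoter peaks. This share was close to the background. In the dTAG-V1 list 36 of 48 member peaks had such a hit, 75.0%, beside 58.3% of all promoter peaks. Member peaks were wider there, with a median of 661.5 bp beside 505 bp, so that more sequence was searched. Without treatment the medians were 589 and 490 bp. Member peaks of the dTAG-V1 list were also more often in decile 1, 39.6% beside 20.8% of all promoter peaks. The shares were not matched for width or decile. The hits were spread unevenly over the ranking. At a p of 1e-05 all 13 member peaks of decile 1 had a hit, as did 92.6% of the promoter peaks of decile 1, whereas 3 of the 30 member peaks in deciles 2 to 10 had one, 10.0% (3.46 to 25.6), beside 31.0% of the promoter peaks of those deciles. These 3 were at PSMC3IP, PSME3 and PSMF1.

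The distance of the SBS hits of decile 1 to the summit is in part built in, as the matrices were learned within 100 bp of peak centres on odd-numbered autosomes, where 9 of the 13 peaks lie. On the other chromosomes all 4 peaks (PSMD7, PSMA3, PSMC6 and PSMD10) had a hit at a p of 1e-05, beside 92.5% of the 663 promoter peaks of decile 1 there, at 3, 17, 21 and 67 bp from the summit. Over all 13, from summit to middle of the hit the median distance was 17 bp, with 12 of 13 distances up to 50 bp and 67 bp in PSMD10. At PSMD13 and PSMB6 the summit fell on the middle of the hit. The best hits at PSMC3IP, PSME3 and PSMF1 lay 289, 213 and 200 bp from the summit. In 10 of the 13 peaks of decile 1 the SBS element pointed along the direction of the member gene. The direction was not counted over other promoters, so that no trait of the members can be read from it. Of the 13 hits 7 were SBS2 and 6 SBS1. The weakest were those of PSMC6 (p 1.12e-06, chr14:52707185-52707202), PSMB6 (p 4.85e-06, chr17:4796111-4796128) and PSMA3 (p 9.20e-06, chr14:58244746-58244763), all of them SBS1.

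**Figure D4:**
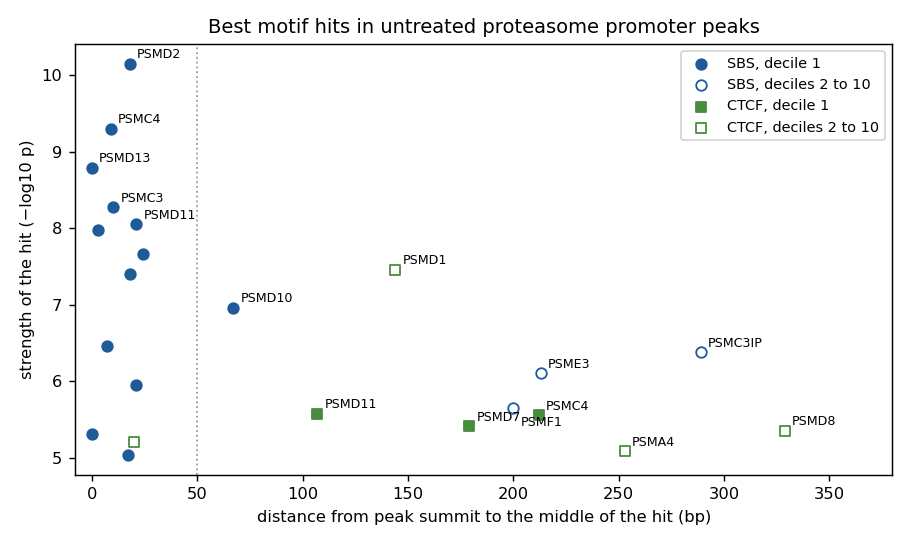
Distance from the summit to the middle of the best SBS (circles) or CTCF hit (squares) with p 1e-05 or below in each untreated member peak (x, bp), against the strength of the hit (y, −log10 p). Filled symbols are peaks of decile 1, and the dotted line marks 50 bp; 12 of the 13 SBS hits of decile 1 lay to its left.

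SBS hits were also found at promoters without a peak. In the window from 250 bases before to 50 after the canonical TSS, a hit at a p of 1e-05 was found in 16 of the 50 members, 32.0% (20.8 to 45.8), and in 20.2% of all protein-coding genes. It was present in all 13 members of decile 1, beside 66.5% of the 2009 protein-coding genes with a peak in that decile, and in 2 of the 10 without a peak, PSMA8 and PSMB9, beside 14.3% of the 9663 protein-coding genes without a peak in either list. From 2000 bp before to 1000 bp after the canonical TSS, 33 members had such a hit, 66.0%, beside 67.9% of all protein-coding genes. Of these 33, 26 had an untreated peak (78.8%) and 7 had none. Of the 17 members without such a hit, 14 had a peak (82.4%). Over all protein-coding genes, 43.9% of those with such a hit and 33.4% of those without had a peak.

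CTCF hits at a p of 5e-05 were found in 15 of the 43 untreated member peaks, 34.9% (22.4 to 49.8), and in 19 of the 48 dTAG-V1 member peaks, 39.6%. The background was 35.0% and 40.1% of all promoter peaks. At a p of 1e-05, 7 untreated member peaks had one, 16.3%, beside 16.8% of all untreated promoter peaks. Neither share set the members apart from other promoters, and the best hits are shown only for comparison with the SBS hits, with the matched letters in capitals.
PSMD1: tcccaCCAGTAGGTGGCACTgcgcg
PSMD11: gccgcCCGCTAGGAGGCGCTgggga
PSMC4: tctctCCGGGAGGTGGCGCAgcccc
PSMD7: gagcaGCACCAGGGGGTGGAccacc
PSMD8: gcatcACGCAAGATGGCGGCcgcgg
PSMC3IP: ggagtCCGGGAGGGGTCGCTttgct
PSMA4: aaggcTCACCAGATGGAAGAccctg
The PSMD1 hit (chr2:231056563-231056577, plus strand) was the strongest, with a p of 3.48e-08, and lay 144 bp from the summit. The other 6 had a p of 2.63e-06 to 8.23e-06. Only that of PSMC3IP (chr17:42577812-42577826) lay within 50 bp of its untreated summit, at 20 bp. In the dTAG-V1 list the hits of PSMC3IP and PSMA4 did, at 37 and 16 bp. The PSMA4 hit lay 253 bp from the untreated summit. The hit of PSMD8 (chr19:38374784-38374798) holds the letters AAGATGGCG of the YY1 motif, so that it matches more than 1 factor's motif. CTCF binding was not measured in the lists used.

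Genes that work with the proteasome were looked at as a list of 25, chosen with earlier results of these data known. Promoter peaks were called at 15 of them without treatment, 60% (40.7 to 76.6), at 21 with dTAG-V1 (84.0%, 65.3 to 93.6) and at 14 in both (56.0%), beside 40.5%, 48.2% and 37.2% of all protein-coding genes. An untreated peak in decile 1 was called at 7 of the 25, 28% (14.3 to 47.6), beside 10.1% of all protein-coding genes. The 7 were UFD1 (rank 32) and UBQLN4 (rank 44), which help to deliver ubiquitinated substrates, and AKIRIN2 (rank 102), needed for nuclear import of proteasomes. Next came the ubiquilin gene UBQLN1 (rank 1149), the 19S-bound deubiquitinase UCHL5 (rank 1324) and the 19S-associated thioredoxin TXNL1 (rank 1328). The last was the small 19S subunit SEM1 (rank 1443). UFD1, UBQLN4 and AKIRIN2 thus ranked above every PSM gene.

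The transcription factors that raise proteasome gene expression had peaks as well. NFE2L1, which activates proteasome genes when the proteasome is inhibited, ranked 2861 without treatment and 4837 with dTAG-V1, and NFE2L2, the antioxidant response factor, 2204 and 2556. NGLY1, which processes the NFE2L1 protein, ranked 14249 and 28448. The ubiquitin receptor ADRM1 ranked 9438 and 6811, the 19S chaperone PAAF1 12220 and 12628, and the 20S maturation factor POMP 11229 and 19850. PITHD1 had an untreated peak only (rank 17084). DDI2, NPLOC4, RAD23B, UBE3C, VCP, ZFAND2A and ZFAND5 had a peak with dTAG-V1 only, with ranks from 19947 to 33100. These 7 are 28.0% (14.3 to 47.6) of the partners, beside 11.1% of all protein-coding genes with a peak in that list only. ECPAS, UBQLN2 and USP14 had none.

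Short motifs of other factors were counted from 250 bases before to 50 after the canonical TSS, on both strands. The ETS motif ACTTCCGG was present in 14 of the 50 proteasome promoters, 28.0% (17.5 to 41.7), beside 6.15% of all protein-coding promoters. The antioxidant response core TGACNNNGC was present in 14 as well, beside 14.1% of all promoters. The YY1 motif AAGATGGCG was found at PSMA2, PSMB6, PSMB7 and PSMD11, 8.00% (3.15 to 18.8), beside 2.85%. The CCAAT box was present in 44% and 36.0%, and the SP1 motif GGGCGG in 70.0% and 61.4%. In this window both of these shares lay close to the background.

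The ETS motif was present at PSMA6, PSMA8, PSMB1, PSMB7, PSMC1, PSMC2, PSMD8, PSMD12, PSMD13, PSMD14, PSMF1, PSMG3, PSME4 and PSME3IP1. These are 11 of the 40 members with a peak and 3 of the 10 without. Only PSMD13 among them had an untreated peak in decile 1, beside 13 of all 50 members. That share was not computed for other promoters with the motif, so that no trait of the members can be read from it. The antioxidant response core was found at PSMB3, PSMB6, PSMC4, PSMD1, PSMD3, PSMD9, PSMD12, PSMA7, PSMB9, PSMD5, PSME1, PSME2, PSME4 and PSMG1, and thus at 5 of the 10 members without a peak and 9 of the 40 with one. When any annotated TSS counted, it was present at 22 of the 40 and 5 of the 10. These matches are letters in a window and no measure of binding.

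**Figure D5:**
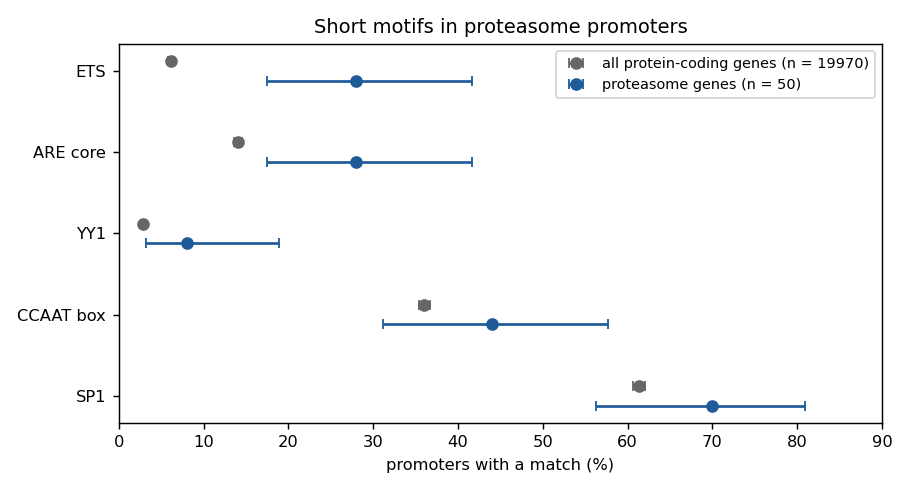
Percentage of promoters (250 bases before to 50 after the canonical TSS) with a match to 5 short motifs, in the 50 proteasome genes and in all protein-coding genes; bars are 95% Wilson intervals. The ETS motif showed the widest gap, 28.0% beside 6.15%.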

How the data were processed

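ChIP-seq of ZNF143 with the Proteintech antibody was analysed from the 2 deposited lists of MACS2 peaks, 1 for 4 untreated and 1 for 4 dTAG-V1 samples of 14 in the series. Per the study's methods, the authors aligned reads with BWA-MEM, called peaks at a q-value of 0.01 and dropped blacklisted regions and non-canonical chromosomes. No control library is named for this call. Reproducible peaks were those found in each of 4 untreated or in any of 4 dTAG-V1 replicates, and whether the deposited lists passed this filter is not given in the sources used here. The names of the untreated peaks say DMSO, whereas the labels say no treatment.

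The deposited columns are the MACS2 score, the fold enrichment (a ratio), −log10 p-values (not used here) and −log10 q-values, and the summit position. No per-sample column was left unused (0). Depth is unknown, and no values were compared between lists. The lists use hg38, and genes came from GENCODE release 44.

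Members and gene lists were chosen with earlier results of these data known. Values are given for every member with an untreated peak and for the 10 highest-ranking with dTAG-V1, and sequences for up to 12 members by SBS score and for each CTCF hit with p 1e-05 or below. SBS1, SBS2 and CTCF matrices were learned within 100 bp of the centres of merged peaks on odd-numbered autosomes (1335, 1170 and 3118 sites). Matrices and peak assignment were tested on simulated data. In promoters, hits are more frequent than p implies, so that shares are given beside those of other promoters. Overlaps were computed with bedtools 2.31.1 and Wilson intervals with scipy 1.17.1. The values of 1 listed partner gene are not reported here.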

Additional observations from a re-analysis of the deposited data

How the results depend on the processing

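Of 77 values recomputed under an alternative, 59 held and 18 moved. A count held if it changed by under 1.5 times, a share if it remained inside its interval. Counts of members, partners and ribosomal protein genes with a peak all held, and members with a peak ranged from 36 to 40 without treatment and from 37 to 40 with dTAG-V1. Members called only without treatment were 0, and 1 (PSMG1) with summits within 500 bp of a TSS. Members called only with dTAG-V1 were 0, and 1 (PSMG4) with the canonical TSS, 2 (PSMA4 and PSMD6) at a −log10 q of 5 and 1 (PSMD13) when the member's TSS had to be nearest, a choice made after seeing the data, as was the CpG background. With 50% of each peak overlapping, 79.1% of the untreated member peaks were found again in place of 97.7%. SBS shares fell to 37.2% (untreated) and 33.3% (dTAG-V1) at a p of 1e-05 and to 53.5% and 52.1% within 100 bp of the summit, and CTCF shares to 16.3% and 14.6%, and 11.6% and 10.4%, by the construction of these settings, as fewer hits count. All promoter peaks fell too, for SBS to 43.7% and 30.9% at a p of 1e-05 and to 55.5% and 38.2% within 100 bp, and for CTCF to 16.8% and 22.2%, and 18.8% and 25.5%. At a p of 1e-05 the untreated SBS share of the members thus lay below that of all promoter peaks, and the gap with dTAG-V1 was small. Within 100 bp of the summit the CTCF shares of the members lay below those of all promoter peaks. With dTAG-V1 the share of all promoter peaks was outside the members' interval (4.53 to 22.2), and without treatment it was inside (5.07 to 24.5). On chromosomes the matrices were not learned on, also chosen after seeing the data, the SBS share with dTAG-V1 was 88.9% of 18 member peaks, beside 56.7% of all promoter peaks there. With any TSS, the antioxidant response core rose to 54.0% (40.4 to 67.0), the CCAAT box to 88.0% (76.2 to 94.4) and SP1 to 84.0% (71.5 to 91.7). Over all protein-coding genes these shares rose to 37.9%, 68.6% and 72.3%, since more sequence was searched. With the window from 500 before to 100 after the TSS, SP1 rose to 86.0% (73.8 to 93.0), beside 68.5%, and the CCAAT box to 50.0%, beside 52.8%. The CCAAT box with any TSS and SP1 in the wider window were thus not close to the background. No paired analysis was possible because the lists hold no replicate columns, and for the same reason no replicate could be left out. Unknown depth limits any reading of an absent peak.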

Other observations

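Of the proteasome genes, 9 share a divergent promoter by their canonical start sites. In these, the canonical TSS of a protein-coding gene on the other strand lies within 1000 bp upstream. Alternative start sites, which can be closer, as at PSMD13 and SIRT3, were not used. The 9 genes are PSMA2 (MRPL32, 202 bp), PSMA7 (SS18L1, 375 bp), PSMB9 (TAP1, 488 bp), PSMD10 (ATG4A, 236 bp), PSMD13 (SIRT3, 634 bp), PSME2 (RNF31, 888 bp), PSME3IP1 (RSPRY1, 290 bp), PSME4 (ACYP2, 120 bp) and PSMG2 (CEP76, 319 bp). TAP1 encodes a peptide transporter of antigen presentation, and RNF31 a subunit of a ubiquitin ligase. An untreated peak was called at 5 of the 9, 55.6% (26.7 to 81.1), and at 35 of the 41 other members, 85.4% (71.6 to 93.1). PSME3, with a TSS of BECN1 41 bp from a summit, is among the 41. Over all protein-coding genes the order was the other way around, with 75.3% of 1895 divergent and 36.9% of 18075 other genes. With 9 genes the interval is wide, and the difference was not tested.

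PSMA7, PSME4 and PSME3IP1 had divergent promoters with CpG ratios of at least 0.75 (1.12, 0.872 and 0.798) and no peak in either list.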
